A study of Mus musculus with 18 samples.

Results

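Beta cells sorted from pancreatic islets of LIRKO mice on HFD were compared with those of Ctrl mice on chow. LIRKO mice lack the insulin receptor in the liver, Ctrl is the control genotype of the labels, and HFD is read here as high-fat diet. The comparison takes the groups that differ in both genotype and diet, 3 LIRKO HFD and 6 Ctrl chow libraries, 9 of the 18 libraries in the series. The other 9 are 4 LIRKO chow and 5 Ctrl HFD libraries, used to set these genes beside the other groups and in the fit to all 18 libraries. Islets of all groups were cultured overnight and dispersed, and cells were gated by forward scatter and by their own fluorescence, so all libraries share that handling. The labels give no age, sex, strain, diet composition or time on diet, no driver of the knockout and no allele of the Ctrl mice. Whether each library is a different animal is not stated, so p-values measure the spread between libraries, which may be technical in part. Genotype and diet change together here, and their parts in a difference cannot be told apart within these 9 libraries.

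Beta cells secrete insulin when glucose enters through the transporter GLUT2, is phosphorylated by glucokinase and raises ATP, which closes potassium channels and opens calcium channels. Without insulin receptors the liver does not respond to insulin, and the mice have high circulating insulin and enlarged islets. High-fat feeding is known as another demand on beta cells. Beta cells hold their identity through transcription factors such as PDX1, MAFA and NKX6-1, and lower levels of these, with a gain of progenitor or otherwise silent genes, are described as dedifferentiation.

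Of 18228 genes tested, 1039 were higher and 683 were lower in LIRKO HFD than in Ctrl chow beta cells at an adjusted p under 0.05. The 1722 genes past that threshold make up 9.45% of those tested, 5.7% higher and 3.75% lower. Counts for the gene lists below are to be read beside these shares. The rises were larger: 330 genes rose and 85 fell by at least 4-fold, and the median log2 fold change was 1.59 among rises and −0.83 among falls. With upper-quartile scaling the calls split into 1331 higher and 418 lower, 76.1% higher against 60.3% with TMM scaling, and the median of all genes moved by 0.133 on the log2 scale. The plot of fold change against level shows that the large rises sit mostly among genes of low level. For 1581 of the 1722 genes no LIRKO HFD library lay within the range of the Ctrl chow libraries; over all genes tested 16.1% had groups that do not overlap, 8.78% with every LIRKO HFD library above and 7.33% with every one below.

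**Figure D1:**
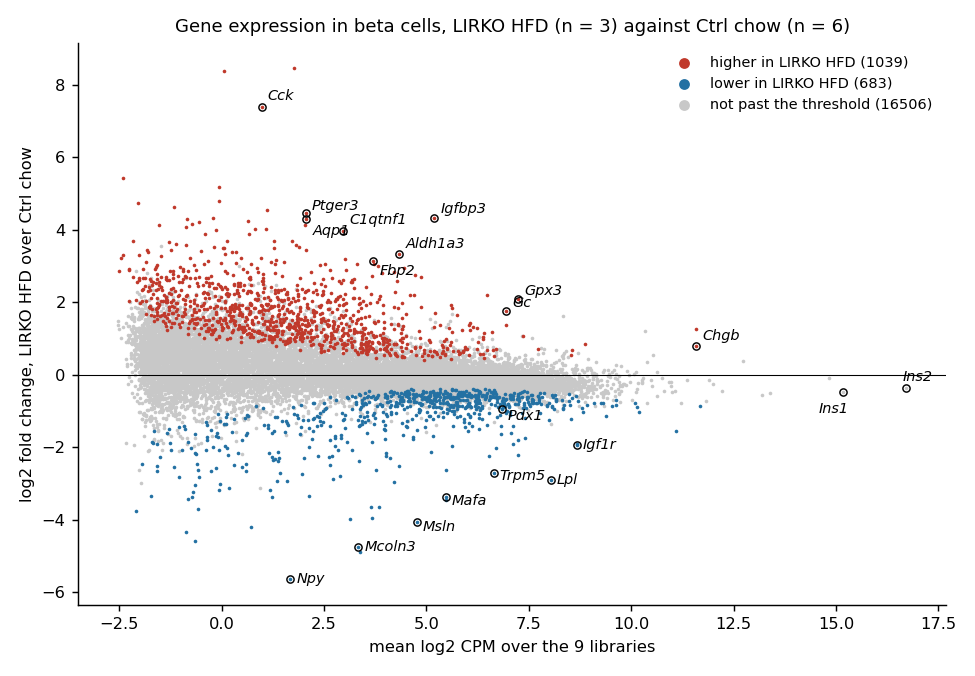
Log2 fold change of each of the 18228 tested genes, LIRKO HFD over Ctrl chow, against its mean log2 CPM over the 9 libraries; red points are the 1039 genes past the threshold that were higher, blue points the 683 that were lower and grey points the rest. Cck and Npy lie at the upper and lower ends among the ringed genes (7.39 and −5.65), while Ins1 and Ins2 lie at the right with changes of −0.47 and −0.38.

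The libraries held 34790225 to 38795120 counts in LIRKO HFD and 24979993 to 43987306 in Ctrl chow. The insulin genes made up 10.0% to 16.3% of all counts in LIRKO HFD and 11.5% to 16.9% in Ctrl chow. The nuclear RNA Malat1, which moves with RNA quality and with the share of nuclei, took 0.486% to 0.600% in LIRKO HFD and 0.0866% to 0.368% in Ctrl chow, with no overlap (exact permutation p = 0.0238, the smallest that 84 splits allow, 0.119 adjusted over 5 such values). Its part in the results was not tested. Within-group differences were large too. In a principal component analysis of the 500 genes with the largest variance, on the component that held 55.1% of it, Ctrl chow replicates 5 and 6 (−34.2 and −35.1) stood apart from the other 4 Ctrl chow libraries (−10.9 to −5.75). On the next component, which held 20.55%, those 4 did not stay together. There Ctrl chow replicates 1, 2 and 4 lay at −20.5 to −18.3, and replicates 3, 5 and 6 at 28.5, 3.29 and 11.7. The number of genes past the threshold depended on single libraries. It was 1838 without LIRKO HFD replicate 1, 424 without LIRKO HFD replicate 2 and 598 without LIRKO HFD replicate 3. It was 2944 without Ctrl chow replicate 4, and 641 without Ctrl chow replicates 5 and 6 together.

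Markers of endothelial cells, which line the capillaries of islets, moved with the groups. Of 18 endothelial markers, 16 rose and none fell, with a median log2 fold change of 2.11, against a median of −0.02 over all genes tested. The count was 3 without LIRKO HFD replicate 2, 6 without LIRKO HFD replicate 3 and 18 without Ctrl chow replicate 3. Their summed level was 398, 391 and 314 CPM in LIRKO HFD, and 45.2, 99.0, 259, 55.5, 52.6 and 89.7 CPM in Ctrl chow replicates 1 to 6. The LIRKO HFD libraries were thus all above the Ctrl chow libraries, and Ctrl chow replicate 3 was nearest to them. Pecam1, an adhesion molecule of endothelial cells, had 29.8, 56.0 and 46.3 CPM in LIRKO HFD, against 2.95 to 16.8 CPM in Ctrl chow (median 5.48), a log2 fold change of 2.60 ± 0.45 (SE, adjusted p = 0.00525). Kdr, the VEGF receptor, overlapped between groups, at 49.1 to 86.3 CPM in LIRKO HFD and 7.05 to 71.8 CPM in Ctrl chow (adjusted p = 0.14). In bulk libraries, more cells of a type and more RNA per cell cannot be told apart. Ctrl chow replicate 3 had the highest level of the 6 Ctrl chow libraries for 43.9% of the genes that rose and for 12.5% of the genes that did not pass. A fit with the mean endothelial marker level per library as a covariate, chosen after seeing the data, left 1 gene past the threshold, Mcoln3, and 1434 genes at an unadjusted p under 0.05. That level did not overlap between the groups (mean log2 CPM 3.43 to 3.84 in LIRKO HFD and 0.50 to 2.83 in Ctrl chow), so the covariate and the group carry much of the same information. Of 65 rises among the genes of the naming rule, 34 kept at least 75% of their log2 fold change with the covariate and 16 kept under 50%; of 48 falls, 40 and 3 did. With the covariate the log2 fold change was 0.51 for Pecam1. Pecam1 and Flt1, both among those 16 rises, are also among the 18 markers averaged into the covariate, so their loss is partly built in.

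Fewer markers of other cells passed. Of 21 macrophage markers 5 rose, and 0 did without LIRKO HFD replicate 2 or 3, with a summed level of 485 to 683 CPM in LIRKO HFD and 231 to 459 CPM in Ctrl chow. Of 13 fibroblast and stellate cell markers 3 rose, 1 without LIRKO HFD replicate 2 or 3 and 6 without Ctrl chow replicate 3, and the median log2 fold change was 2.13, while the summed level overlapped, at 161 to 235 CPM in LIRKO HFD and 154 to 225 CPM in Ctrl chow. None of 20 acinar markers passed with edgeR or DESeq2, and 0 had an unadjusted p under 0.05. Of 13 alpha cell markers 4 rose, 2 without LIRKO HFD replicate 2, yet Gcg, which encodes glucagon, overlapped at 284, 2670 and 3300 CPM in LIRKO HFD and 262 to 1559 CPM in Ctrl chow (adjusted p = 0.27). Of 9 delta cell markers 2 fell, 1 of them Pdx1, which beta cells express too, and 0 fell without LIRKO HFD replicate 2 or 3. Their summed level did not overlap, at 253 to 277 CPM in LIRKO HFD and 321 to 1055 CPM in Ctrl chow, and its part in the results was not tested. That sum includes Pdx1, whose own groups did not overlap, so it cannot show a delta cell difference apart from Pdx1. Sst, which encodes somatostatin, was at 103, 152 and 135 CPM in LIRKO HFD and 115 to 730 CPM in Ctrl chow (adjusted p = 0.12). Of 3 mesothelial markers 1, Msln, fell, and their summed level was 4.27 to 12.8 CPM in LIRKO HFD and 34.1 to 63.9 CPM in Ctrl chow. Of 4 Schwann and neural cell markers 2 rose, 0 without LIRKO HFD replicate 2. Their summed level was lower, at 122 to 133 CPM in LIRKO HFD and 137 to 191 CPM in Ctrl chow. The 1 adipocyte marker tested, Fabp4, rose. The part of these cells in the results was not tested.

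**Figure D2:**
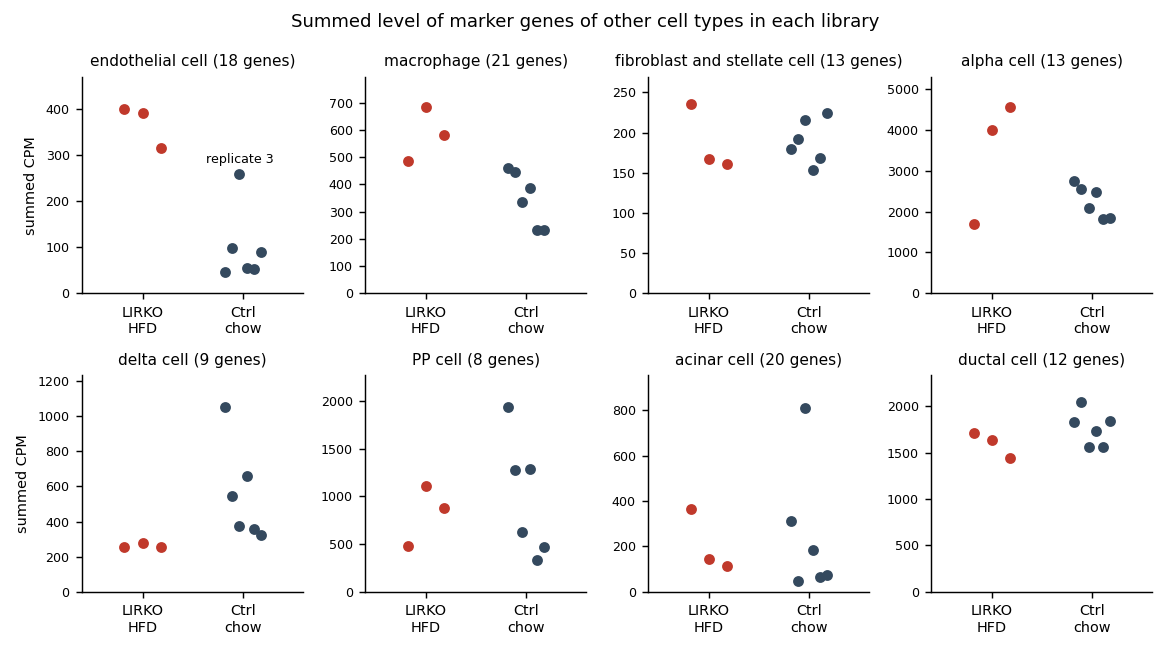
Summed CPM of the tested members of 8 marker lists, 1 point per library, with the 3 LIRKO HFD libraries left and the 6 Ctrl chow libraries right. The endothelial sums of LIRKO HFD (314 to 398) lie above all Ctrl chow sums (45.2 to 259), while the fibroblast and stellate cell, alpha cell, PP cell, acinar and ductal sums overlap.

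The libraries carried beta cell markers at high levels in both groups. Insulin gene levels were not past the threshold. Ins2 was at 122287, 83223 and 64891 CPM in LIRKO HFD, against 86746 to 139070 CPM in Ctrl chow, a log2 fold change of −0.38 ± 0.28 (adjusted p = 0.41). The estimate for Ins1 was −0.47 ± 0.27 (adjusted p = 0.29), and that for Iapp, the islet amyloid hormone released with insulin, was −0.08 ± 0.27 (adjusted p = 0.86). Insr, the receptor that LIRKO mice lack in the liver, had 53.8, 54.1 and 52.9 CPM in LIRKO HFD and 45.1 to 63.5 CPM in Ctrl chow (adjusted p = 0.865). Since the deletion concerns the liver, Insr in beta cells is no check of the genotype labels.

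Among 22 beta cell transcription factors 3 (13.6%) fell and 1 (4.55%) rose, with a median log2 fold change of −0.26. Over all genes tested 3.75% fell and 5.7% rose. Without LIRKO HFD replicate 2 or 3 it was 1 fall, and without Ctrl chow replicate 4 it was 5 falls and 2 rises. Mafa, which encodes a factor that drives insulin transcription in mature beta cells, had 8.60, 4.50 and 5.08 CPM in LIRKO HFD, against 31.6 to 105 CPM in Ctrl chow (median 53.4). The groups did not overlap, and the change was −3.39 ± 0.41 on the log2 scale, a 10.5-fold lower level (adjusted p = 0.000748). Pdx1, a master regulator of pancreas formation and of beta cell function, had 90.4, 62.7 and 59.2 CPM in LIRKO HFD, against 94.1 to 171 CPM in Ctrl chow (log2 fold change −0.94 ± 0.20, adjusted p = 0.014). LIRKO HFD replicate 1 came close to the lowest Ctrl chow library, and the call was lost without LIRKO HFD replicate 2 (adjusted p = 0.10) or 3 (0.084). The range was 0.00036 to 0.10 over the 14 settings of scaling, filter, tool and library choice. The Pdx1 call was also lost without Ctrl chow replicates 5 and 6 together (0.058) and with the endothelial covariate (0.618). Insm1, a zinc finger factor of endocrine cells, fell by 0.83 ± 0.17 on the log2 scale (adjusted p = 0.012), and Tcf7l2, a Wnt pathway factor, rose by 0.81 ± 0.20 (adjusted p = 0.025). Both calls were lost without LIRKO HFD replicate 2 (adjusted p = 0.087 for Insm1 and 0.19 for Tcf7l2) or 3 (0.072 and 0.087). The Tcf7l2 call was also lost without Ctrl chow replicate 5 (adjusted p = 0.0508) and with all 18 libraries in the fit (0.109). Nkx6-1, which represses alpha cell genes, had 303, 297 and 244 CPM in LIRKO HFD and 247 to 405 CPM in Ctrl chow (adjusted p = 0.68). Its estimate of −0.12 ± 0.17 was 0.01 with upper-quartile scaling.

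Of 23 hormone and granule genes 5 fell and 1 rose, median −0.38. Slc30a8, the zinc transporter of insulin granules, had 346, 215 and 249 CPM in LIRKO HFD, against 396 to 724 CPM in Ctrl chow (log2 fold change −1.03 ± 0.26, adjusted p = 0.028). That call was lost without LIRKO HFD replicate 2 (adjusted p = 0.169) or 3 (0.121) or Ctrl chow replicate 5 (0.0509) or 6 (0.0623). Chgb, a granule protein, was the member that rose, at 3791, 4720 and 4378 CPM in LIRKO HFD against 2163 to 2869 CPM in Ctrl chow (log2 fold change 0.80 ± 0.16, adjusted p = 0.012). The Chgb call was lost without LIRKO HFD replicate 2 (adjusted p = 0.0889) or 3 (0.0614). Without LIRKO HFD replicate 2 none of the 23 passed, in either direction, and without LIRKO HFD replicate 3, 1 fell. Ucn3, a peptide of mature beta cells, differed within LIRKO HFD: replicate 1 had 299 CPM and replicates 2 and 3 had 120 and 103 CPM, against 296 to 419 CPM in Ctrl chow (adjusted p = 0.059).

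Of 28 exocytosis genes 3 fell and none rose; 2 rose without LIRKO HFD replicate 1, and 5 fell and 1 rose without Ctrl chow replicate 4. Mlph, which encodes melanophilin, a linker of granules to the actin motor, had 2.15, 3.58 and 4.17 CPM in LIRKO HFD, against 17.5 to 39.3 CPM in Ctrl chow (log2 fold change −2.97 ± 0.29, adjusted p = 0.00030). Sytl4, which encodes granuphilin, a protein that docks insulin granules, had 160, 118 and 153 CPM in LIRKO HFD, against 361 to 748 CPM in Ctrl chow (−1.92 ± 0.27, adjusted p = 0.0016). Both passed in all 14 settings of scaling, filter, tool and library choice. With the endothelial covariate neither passed (−2.55 and −1.75, adjusted p = 0.229 and 0.492).

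**Figure D3:**
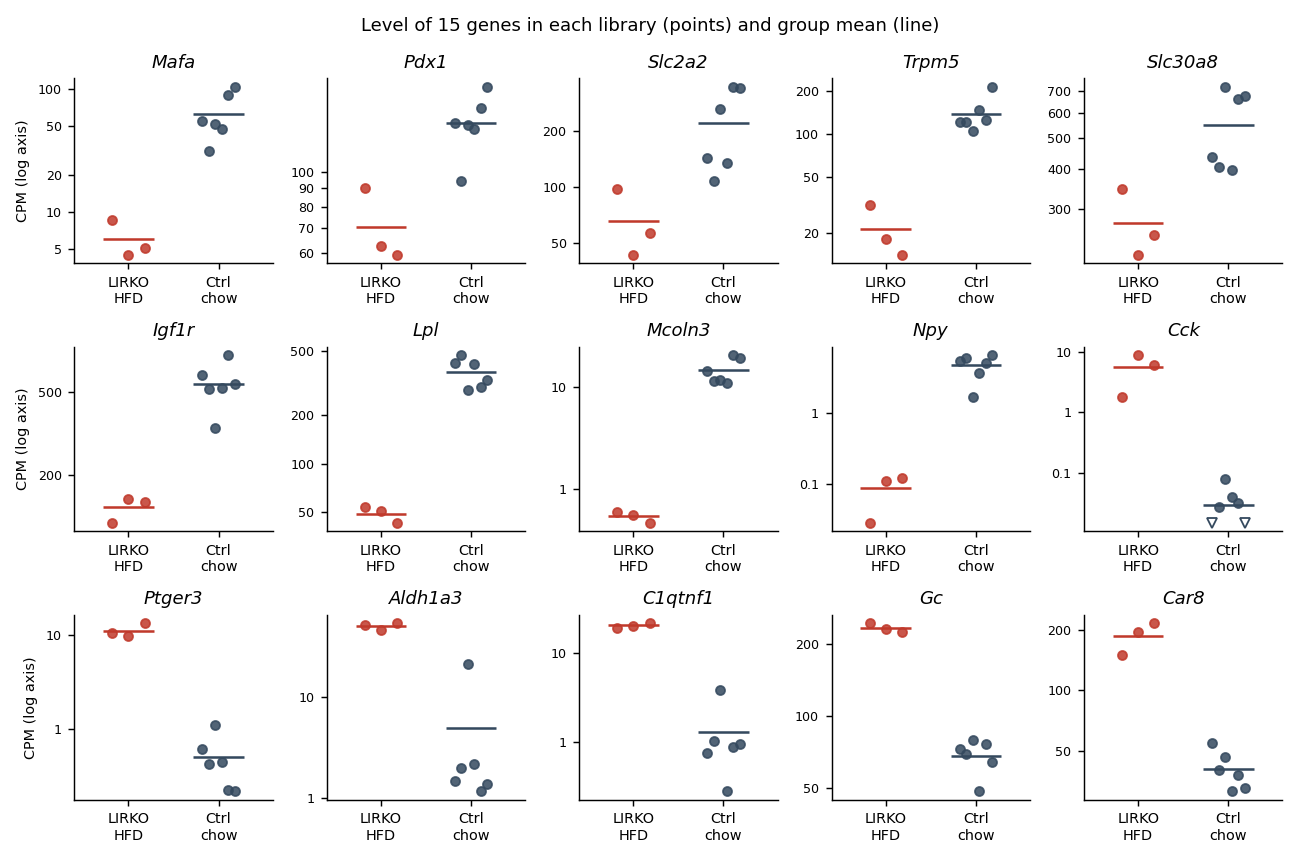
CPM on a log axis of 15 genes in each library, with LIRKO HFD left and Ctrl chow right; lines are group means and open triangles mark libraries at 0. The groups do not overlap for any of the 15 genes, and for Aldh1a3 and C1qtnf1 Ctrl chow replicate 3 (21.5 and 3.85 CPM) lies between the LIRKO HFD libraries and the other Ctrl chow libraries.

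Genes of glucose entry and use changed in both directions, 4 higher and 5 lower of 26, which became 3 and 0 without LIRKO HFD replicate 2, 3 and 2 without LIRKO HFD replicate 3, and 7 and 5 without LIRKO HFD replicate 1. Slc2a2, which encodes GLUT2, had 97.0, 43.2 and 56.4 CPM in LIRKO HFD, against 107 to 343 CPM in Ctrl chow (median 201), a log2 fold change of −1.75 ± 0.43 (adjusted p = 0.025). The Ctrl chow libraries fell into a lower set of 3 (replicates 1, 2 and 4, 107 to 143 CPM) and an upper set of 3 (replicates 3, 5 and 6, 260 to 343 CPM). The call was lost without LIRKO HFD replicate 2 (adjusted p = 0.14) or 3 (0.11) or Ctrl chow replicate 6 (0.053). The range was 0.00018 to 0.14 over the 14 settings of scaling, filter, tool and library choice. It was also lost without Ctrl chow replicates 5 and 6 together (0.076) and with the endothelial covariate (0.618). Txnip, a glucose-induced inhibitor of thioredoxin, had 97.3, 138 and 138 CPM in LIRKO HFD, against 40.9 to 71.0 CPM in Ctrl chow (1.28 ± 0.19, adjusted p = 0.00215). Arrdc4, its relative and likewise a target of the glucose sensor ChREBP, rose by 0.91 ± 0.16 (adjusted p = 0.0052).

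Fbp2, the muscle form of the gluconeogenic enzyme fructose-1,6-bisphosphatase, is normally low in beta cells. Fbp2 had 10.7, 43.7 and 40.3 CPM in LIRKO HFD, against 1.73 to 4.36 CPM in Ctrl chow, so that LIRKO HFD replicate 1 was lowest of its group but above all Ctrl chow libraries (log2 fold change 3.15 ± 0.38, adjusted p = 0.00077). Of 22 glycolysis genes none fell. Hk1, a hexokinase usually silent in beta cells, rose and had 4.38, 17.7 and 14.1 CPM in LIRKO HFD and 0.634 to 4.40 CPM in Ctrl chow (adjusted p = 0.0254), a call lost without LIRKO HFD replicate 2 (0.166) or 3 (0.0991) or Ctrl chow replicate 6 (0.0588). The summed level of the 22 genes spread as much within the groups as between them, at 3230, 7005 and 6554 CPM in LIRKO HFD and 3199 to 8583 CPM in Ctrl chow. None of 74 oxidative phosphorylation genes passed with edgeR, though 14 had an unadjusted p under 0.05 and 3 fell with DESeq2.

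Ion channel genes and receptors included some of the largest changes. Mcoln3, which encodes the endolysosomal cation channel TRPML3, lies on chromosome 3 (146117450 to 146141806, plus strand, GRCm38) and had the smallest p of all genes tested. It had 0.602, 0.563 and 0.466 CPM in LIRKO HFD, against 14.6, 11.5, 11.8, 11.0, 20.8 and 19.2 CPM in Ctrl chow. The groups were far apart and tight within themselves; the change was −4.76 ± 0.31 on the log2 scale, 27.1-fold lower (adjusted p = 6.97e-05). Trpm5, a calcium-activated cation channel that depolarises beta cells, had 31.8, 18.3 and 14.1 CPM in LIRKO HFD, against 104 to 215 CPM in Ctrl chow (−2.71 ± 0.31, adjusted p = 0.000535). Kcnj12, an inward rectifier potassium channel, fell by 3.65 ± 0.46 on the log2 scale (adjusted p = 0.00088). Aqp4, a water channel, rose by 2.27 ± 0.25 (adjusted p = 0.00048). Of the 48 channel genes 8 fell and 3 rose, and 5 fell and 2 rose without LIRKO HFD replicate 2 or 3.

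Of 30 receptors that tune insulin secretion 6 fell and 4 rose, 1 and 3 without LIRKO HFD replicate 2 and 2 and 3 without LIRKO HFD replicate 3. Ptger3, the prostaglandin E2 receptor EP3, which couples to inhibitory G proteins and lowers cAMP, had 10.5, 9.70 and 13.3 CPM in LIRKO HFD, against 0.215 to 1.10 CPM in Ctrl chow (median 0.429). It was 21.9-fold higher (log2 fold change 4.45 ± 0.41, adjusted p = 0.00030). Ptger4, the prostaglandin receptor EP4, which raises cAMP, rose as well, by 1.94 ± 0.30 (adjusted p = 0.0031). Vipr1, a receptor for the peptide VIP, fell by 0.84 ± 0.13 (adjusted p = 0.0030). Glp1r, the incretin receptor, overlapped, at 116, 69.6 and 139 CPM in LIRKO HFD and 71.9 to 335 CPM in Ctrl chow (adjusted p = 0.17).

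Peptide genes gave the largest changes of named genes in both directions. Cck, which encodes the gut and brain hormone cholecystokinin and is on the dedifferentiation list, had 62, 391 and 244 counts in the LIRKO HFD libraries, against 0, 1, 3, 1, 1 and 0 counts in Ctrl chow. That is 1.78, 8.80 and 5.99 CPM in LIRKO HFD and at most 0.0786 CPM in Ctrl chow. The fitted log2 fold change of 7.39 ± 0.64 (adjusted p = 0.00021) depends on the prior count at such low control levels. Npy, neuropeptide Y, which lowers insulin release and is high in immature beta cells, went the other way, with 1, 5 and 5 counts in LIRKO HFD, against 215, 213, 65, 92, 158 and 212 counts in Ctrl chow. Its levels were 0.0287 to 0.123 CPM in LIRKO HFD and 1.70 to 6.50 CPM in Ctrl chow (−5.65 ± 0.57, adjusted p = 0.00038). Of the 15 neuropeptide genes, Cartpt and Gast, which encodes gastrin, also rose (2.53 ± 0.36 and 2.19 ± 0.43, adjusted p = 0.00159 and 0.0107); the Gast call was lost without LIRKO HFD replicate 2 (0.107).

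Other members of the 20 dedifferentiation and progenitor genes did not share 1 direction: of all 20, 5 rose and 2 fell, 1 and 1 without LIRKO HFD replicate 2 and 2 and 2 without LIRKO HFD replicate 3. Aldh1a3, an enzyme that makes retinoic acid and marks failing beta cells, had 52.2, 45.9 and 53.7 CPM in LIRKO HFD, against 1.48, 2.0, 21.5, 2.18, 1.17 and 1.38 CPM in Ctrl chow. The groups did not overlap, and Ctrl chow replicate 3, the library with the high endothelial marker level, stood well above its group. The log2 fold change was 3.34 ± 0.81 (adjusted p = 0.025). The call was lost without LIRKO HFD replicate 2 (adjusted p = 0.084) or 3 (0.080) or Ctrl chow replicate 6 (0.053). The range was 8.1e-07 to 0.084 over the 14 settings of scaling, filter, tool and library choice, and 0.089 without Ctrl chow replicates 5 and 6 together. With the endothelial covariate the log2 fold change of Aldh1a3 was 0.45 (adjusted p = 0.844), while that of Cck was 5.60 and that of Npy −4.45. Of 26 genes normally silenced in beta cells 6 rose and 2 fell, median 0.95; without LIRKO HFD replicate 3, 3 rose and 0 fell. Of the 6 rises, Nfib, a nuclear factor of other lineages, had 3.12, 4.48 and 3.31 CPM in LIRKO HFD and 0.38 to 1.55 CPM in Ctrl chow. It passed in all 14 settings of scaling, filter, tool and library choice. Without LIRKO HFD replicate 2 it was the 1 member of the list past the threshold. Its log2 fold change was 2.09, and 0.72 with the endothelial covariate, where it did not pass (adjusted p = 0.71).

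The stretches just before the start sites of Cck and Fbp2, which rose, and of Npy and Slc2a2, which fell, are printed here. These genes mark the extremes of the peptide and glucose groups. The stretches are the 250 bases before the RefSeq start on GRCm38.p6, written on the gene's strand. Capitals mark CACGTG, an E-box that the glucose sensor ChREBP and related factors can bind as part of a longer element, and TGANTCA, the core letters of AP-1 sites, searched on both strands. The positions are chr9:121495695-121495944 (minus strand) for Cck, chr13:62858401-62858650 (minus strand) for Fbp2, chr6:49822460-49822709 (plus strand) for Npy and chr3:28697653-28697902 (plus strand) for Slc2a2.
Cck: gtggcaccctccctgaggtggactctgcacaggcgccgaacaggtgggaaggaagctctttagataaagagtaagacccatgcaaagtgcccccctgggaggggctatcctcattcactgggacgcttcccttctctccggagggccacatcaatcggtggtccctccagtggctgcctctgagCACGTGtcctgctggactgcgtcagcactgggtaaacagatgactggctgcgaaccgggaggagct
Fbp2: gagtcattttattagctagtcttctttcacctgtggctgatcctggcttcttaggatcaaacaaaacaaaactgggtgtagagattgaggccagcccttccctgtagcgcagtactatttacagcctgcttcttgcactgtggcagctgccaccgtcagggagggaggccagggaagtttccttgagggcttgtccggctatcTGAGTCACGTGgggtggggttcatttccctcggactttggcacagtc
Npy: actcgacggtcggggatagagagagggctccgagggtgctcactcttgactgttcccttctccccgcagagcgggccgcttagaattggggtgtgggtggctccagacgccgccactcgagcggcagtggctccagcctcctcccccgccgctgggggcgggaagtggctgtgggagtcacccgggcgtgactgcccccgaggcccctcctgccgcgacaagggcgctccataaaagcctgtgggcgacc
Slc2a2: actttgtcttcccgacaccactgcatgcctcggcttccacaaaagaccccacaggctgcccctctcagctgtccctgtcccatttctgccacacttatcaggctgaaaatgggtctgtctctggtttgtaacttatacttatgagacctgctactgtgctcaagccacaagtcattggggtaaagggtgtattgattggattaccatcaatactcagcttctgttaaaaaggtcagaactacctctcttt

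The Cck stretch held 1 CACGTG, whose first base lies 66 bases before the start. In the Fbp2 stretch a TGANTCA match 47 bases before the start overlaps a CACGTG at 42 bases, as TGAGTCACGTG. Neither motif was found in the Npy and Slc2a2 stretches. The 4 genes and the motifs in capitals were chosen after the matches were seen. Over the 12076 tested genes with such a stretch, CACGTG was present in 7.28% of genes that rose, 9.96% of genes that fell and 9.45% of all. TGANTCA was present in 9.57%, 5.36% and 5.79%. The other 2 motifs searched were TGACGTCA, the cAMP response element, at 1.75%, 2.30% and 3.02%, and CANNTG, which contains CACGTG, at 67.3%, 62.6% and 63.0%. These shares were not tested, and a match is not a binding site.

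Of 41 genes of insulin and IGF signalling 6 (14.6%) fell and 1 (2.44%) rose, with a median of −0.21. Over all genes tested 3.75% fell and 5.7% rose. Without LIRKO HFD replicate 2, 1 gene of the list fell, and without LIRKO HFD replicate 3, 3 fell, with no rise. Igf1r, the IGF-1 receptor, on chromosome 7 (67952827 to 68233668, plus strand), had 118, 154 and 149 CPM in LIRKO HFD, against 602, 516, 337, 520, 746 and 541 CPM in Ctrl chow. The highest LIRKO HFD library was below the lowest Ctrl chow library, and the change was −1.96 ± 0.24 on the log2 scale, 3.88-fold lower (adjusted p = 0.000743). With the endothelial covariate it was −1.02. Shc1, an adaptor to the Ras pathway, fell by 0.92 ± 0.17 on the log2 scale (adjusted p = 0.0072, and 0.059 without LIRKO HFD replicate 2). Irs2, the main adaptor of the insulin receptor in beta cells, had 27.8, 48.2 and 53.5 CPM in LIRKO HFD and 17.6 to 38.9 CPM in Ctrl chow (adjusted p = 0.17).

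Among 13 IGF ligand and binding protein genes 3 rose and 3 fell, and 1 each without LIRKO HFD replicate 2. Igfbp3, a secreted carrier that limits IGF action, had 47.1, 145 and 106 CPM in LIRKO HFD, against 1.77 to 9.35 CPM in Ctrl chow (log2 fold change 4.32 ± 0.43, adjusted p = 0.00038). Igf2, which beta cells secrete as an autocrine signal, had 2.18, 3.20 and 2.48 CPM in LIRKO HFD, against 6.31 to 10.8 CPM in Ctrl chow (−1.76 ± 0.23, adjusted p = 0.0012). Igf2 lies beside Ins2 on the same strand of chromosome 7, and reads shared with Ins2 transcripts were not examined. Of 20 ERK feedback genes 5 rose and 1 fell, 2 and 0 without LIRKO HFD replicate 2 or 3, among them Dusp5, a phosphatase of ERK, at 49.1, 100 and 85.8 CPM in LIRKO HFD and 28.5 to 42.0 CPM in Ctrl chow (1.17 ± 0.20, adjusted p = 0.0053). Etv5, an ERK target, was not past the threshold (−0.54 ± 0.22, adjusted p = 0.14).

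Lpl, the lipase that frees fatty acids from circulating triglyceride, on chromosome 8 (68880491 to 68907448, plus strand), had 53.6, 50.9 and 42.9 CPM in LIRKO HFD, against 422, 473, 287, 414, 300 and 329 CPM in Ctrl chow. It fell by 2.92 ± 0.21 on the log2 scale, 7.55-fold (adjusted p = 0.000125), the only fall among 24 lipid uptake and storage genes, 10 of which rose (median 0.62). Mgll, which cleaves monoglycerides, had 3.27, 7.81 and 5.69 CPM in LIRKO HFD, against 0.444 to 1.62 CPM in Ctrl chow (2.80 ± 0.38, adjusted p = 0.00144). Fabp4, a fatty acid carrier of adipocytes and capillary endothelium, had 22.1, 22.2 and 14.8 CPM in LIRKO HFD and 0.856 to 4.58 CPM in Ctrl chow (3.18 ± 0.44, adjusted p = 0.0014). With the endothelial covariate the log2 fold change of Fabp4 was 1.20, that of Mgll 1.43 and that of Lpl −2.62. Angptl4, a secreted inhibitor of LPL, had 1.06, 6.75 and 5.06 CPM in LIRKO HFD and 0.507 to 0.912 CPM in Ctrl chow (2.58 ± 0.43, adjusted p = 0.00445). Of 24 fatty acid synthesis genes 4 fell and 1 rose, while with upper-quartile scaling 2 fell and 3 rose; Scd1, the stearoyl-CoA desaturase, had 1.15, 0.63 and 0.393 CPM in LIRKO HFD, against 2.42 to 4.53 CPM in Ctrl chow (−2.29 ± 0.36, adjusted p = 0.0032). None of 25 cholesterol synthesis genes passed with edgeR, though 7 had an unadjusted p under 0.05, 2 fell with DESeq2 and 3 fell without LIRKO HFD replicate 1. Without LIRKO HFD replicate 2 or 3, 4 lipid uptake and storage genes rose and 1 fell, and 1 synthesis gene fell.

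Of 36 ATF4 target genes, which serve the amino acid and integrated stress response, 8 fell and none rose. That is 22.2% against 3.75% of all genes tested that fell, and the median was −0.31. Without LIRKO HFD replicate 2, 3 fell, and without LIRKO HFD replicate 3, 1 fell. Some members rose in other settings: 6 fell and 2 rose without LIRKO HFD replicate 1, 5 and 1 did with upper-quartile scaling, and 9 and 1 with DESeq2. Psph, the last enzyme of serine synthesis, had 21.4, 17.6 and 17.5 CPM in LIRKO HFD, against 29.3 to 50.4 CPM in Ctrl chow (−1.04 ± 0.18, adjusted p = 0.0059; −0.62 with the endothelial covariate). Trib3, a pseudokinase induced by ATF4, had 99.2, 145 and 122 CPM in LIRKO HFD and 173 to 240 CPM in Ctrl chow (−0.75 ± 0.16, adjusted p = 0.0145, and 0.0695 without LIRKO HFD replicate 3). Of 40 ER chaperone and degradation genes 3 (7.5%) rose and 2 (5%) fell, near the 5.7% and 3.75% over all genes tested. Without LIRKO HFD replicate 2, 0 did either. Hspa5, the chaperone BiP, was at 1527 to 2036 CPM in LIRKO HFD and 1448 to 2428 CPM in Ctrl chow (adjusted p = 0.53). None of 35 G2 and M phase genes and none of 34 DNA replication genes passed with edgeR, though 9 and 4 had an unadjusted p under 0.05 and DESeq2 called 3 lower and 1 higher; Mki67, the Ki-67 proliferation marker, was at 2.63 to 2.87 CPM in LIRKO HFD and 1.96 to 5.80 CPM in Ctrl chow (adjusted p = 0.51). Ccnd2, the main D-type cyclin of mouse beta cells, fell by 0.83 ± 0.16 (adjusted p = 0.0087, and 0.0707 and 0.0568 without LIRKO HFD replicates 2 and 3). Cish, a feedback inhibitor of prolactin and growth hormone signalling, had groups that did not overlap, at 29.8, 35.4 and 33.2 CPM in LIRKO HFD and 12.0 to 16.2 CPM in Ctrl chow (1.15 ± 0.13, adjusted p = 0.00051). None of 34 interferon response and antigen presentation genes and none of 77 ribosomal protein genes passed with edgeR or DESeq2, and 0 and 2 had an unadjusted p under 0.05; 2 interferon response genes rose without LIRKO HFD replicate 1.

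Of 46 genes of the activin and BMP family 13 (28.3%) rose and 2 (4.35%) fell, median 0.28. Over all genes tested 5.7% rose and 3.75% fell. Without LIRKO HFD replicate 2 it was 7 rises and 1 fall in this family, and with the endothelial covariate its median was −0.04. Inhbb, the subunit of activin B, had 31.5, 55.2 and 42.8 CPM in LIRKO HFD, against 2.38 to 13.9 CPM in Ctrl chow (log2 fold change 2.82 ± 0.44, adjusted p = 0.0029). Bmp3, a BMP antagonist, had 22.2, 17.9 and 21.3 CPM in LIRKO HFD, against 1.07 to 6.36 CPM in Ctrl chow (2.61 ± 0.42, adjusted p = 0.0034). With the endothelial covariate these changes were 0.77 and 2.10. Ltbp2, a matrix protein of microfibrils, fell by 2.27 ± 0.37 (adjusted p = 0.0037). Of 39 collagen, matrix and basement membrane genes 9 rose and 5 fell, median 1.48; the median was −0.58 with the endothelial covariate. Lama5, a laminin of vascular basement membrane, had 23.3, 24.2 and 24.2 CPM in LIRKO HFD, against 0.954, 1.69, 9.30, 1.43, 1.77 and 1.96 CPM in Ctrl chow, where replicate 3 was again highest (3.06 ± 0.56, adjusted p = 0.0075; 0.69 with the endothelial covariate). Without LIRKO HFD replicate 2, 1 matrix gene rose and 3 fell, without LIRKO HFD replicate 3 it was 3 and 4, and without Ctrl chow replicate 3 it was 16 and 4.

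**Figure D4:**
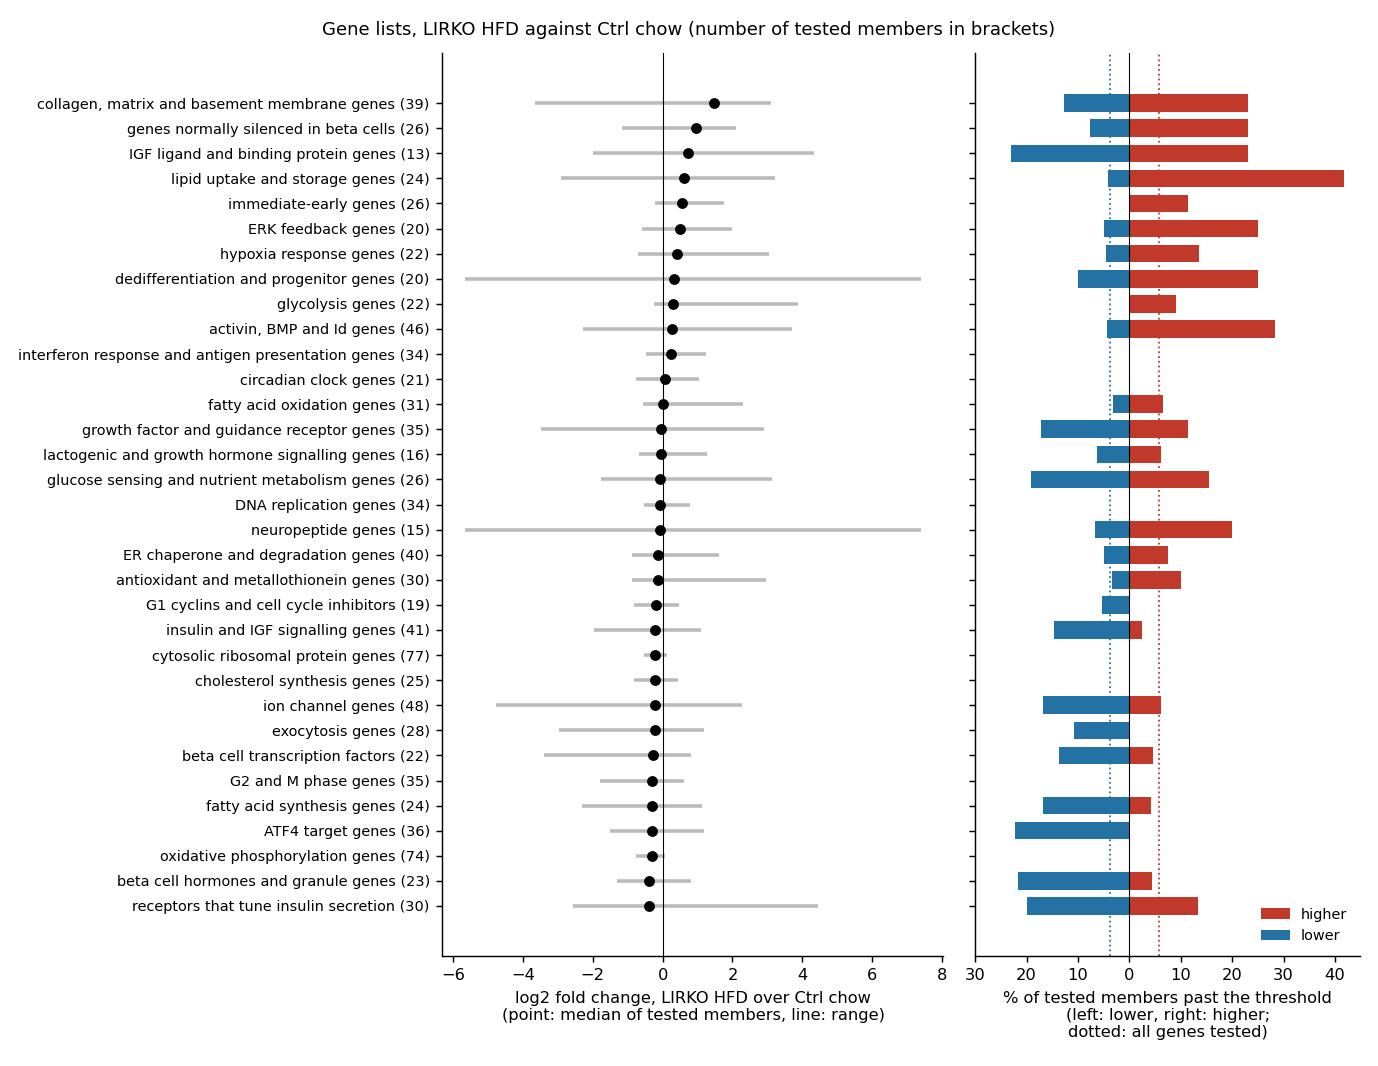
For 33 gene lists, left the median (point) and range (line) of the log2 fold change of tested members, LIRKO HFD over Ctrl chow, and right the percentage of tested members past the threshold, lower to the left and higher to the right; dotted lines are the shares over all genes tested, 3.75% lower and 5.7% higher. The lists at the top have medians up to 1.48 (collagen and matrix genes), and lipid uptake and storage has the longest bar to the right, 10 of 24 genes.

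Receptors for growth and guidance cues changed in both directions, 4 higher and 6 lower of 35, and 2 and 2 without LIRKO HFD replicate 2. Ptprk, a receptor phosphatase of cell contacts, had 18.1, 19.9 and 22.4 CPM in LIRKO HFD, against 2.30 to 5.89 CPM in Ctrl chow (2.56 ± 0.27, adjusted p = 0.000416; 1.64 with the endothelial covariate). Nrcam, a neuronal cell adhesion molecule, had 1.38, 7.52 and 8.42 CPM in LIRKO HFD, against 38.1 to 96.2 CPM in Ctrl chow (−3.47 ± 0.52, adjusted p = 0.00233). Of 22 hypoxia response genes 3 rose and 1 fell, and 8 rose without LIRKO HFD replicate 1. Egln3, an oxygen-sensing hydroxylase, had 9.43, 43.7 and 41.9 CPM in LIRKO HFD and 1.11 to 8.23 CPM in Ctrl chow, so that LIRKO HFD replicate 1 was close to the Ctrl chow range (3.06 ± 0.57, adjusted p = 0.00767).

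Several other genes had small p-values. Car8, a carbonic anhydrase relative that binds the IP3 receptor, had 151, 195 and 216 CPM in LIRKO HFD, against 31.4 to 55.0 CPM in Ctrl chow (log2 fold change 2.20 ± 0.18, adjusted p = 0.00020). Its estimate was also 2.20 with the endothelial covariate. Gc, the vitamin D-binding protein, on the alpha cell list, had 245, 231 and 224 CPM in LIRKO HFD, against 48.5 to 79.2 CPM in Ctrl chow (1.77 ± 0.15, adjusted p = 0.00020). LIRKO HFD replicate 1, whose Gcg was 284 CPM, had the highest Gc, and the part of alpha cells in the Gc difference was not tested. Smoc1, a secreted calcium-binding matricellular protein, rose by 1.68 ± 0.14 (adjusted p = 0.00020). C1qtnf1, a secreted relative of adiponectin, had 19.4, 20.4 and 21.7 CPM in LIRKO HFD, against 0.753, 1.01, 3.85, 0.278, 0.887 and 0.951 CPM in Ctrl chow (3.97 ± 0.53, adjusted p = 0.00125). With the endothelial covariate its log2 fold change was 1.83. Gpx3, a secreted glutathione peroxidase, had 355, 311 and 261 CPM in LIRKO HFD and 41.8 to 95.3 CPM in Ctrl chow (2.09 ± 0.23, adjusted p = 0.00048).

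The groups with 1 of the 2 changes place these genes differently. All 4 groups were fitted together, in which 2.03% of genes differed between LIRKO HFD and LIRKO chow (1.06% higher and 0.975% lower in LIRKO HFD) and 98 genes, 0.508%, between LIRKO HFD and Ctrl HFD (0.316% higher and 0.192% lower). The 4 LIRKO chow libraries form 2 near-identical pairs, and with each pair summed 7 genes differed from LIRKO chow; without Ctrl HFD replicates 1 and 2, which stand apart, 193 differed from Ctrl HFD. Igf1r was lowest in LIRKO HFD, at 120 to 152 CPM, against 520 to 704 CPM in LIRKO chow, 252 to 372 CPM in Ctrl HFD and 331 to 726 CPM in Ctrl chow. Its log2 difference was −2.12 ± 0.23 from LIRKO chow (adjusted p = 0.000365, and 0.0063 with pairs summed) and −1.08 ± 0.22 from Ctrl HFD (0.027). Npy was at 0.029 to 0.125 CPM in LIRKO HFD, 1.05 to 1.32 CPM in LIRKO chow, 0.37 to 0.567 CPM in Ctrl HFD and 1.67 to 6.71 CPM in Ctrl chow, a difference of −3.61 ± 0.49 from LIRKO chow (adjusted p = 0.0023, and 0.0365 with pairs summed) and −2.31 ± 0.48 from Ctrl HFD (0.034, and 0.055 without the 2 Ctrl HFD libraries).

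Mcoln3 was at 0.476 to 0.61 CPM in LIRKO HFD, 2.82 to 5.14 CPM in LIRKO chow, 1.44 to 8.35 CPM in Ctrl HFD and 11.1 to 20.2 CPM in Ctrl chow. Its difference was −2.83 ± 0.49 from LIRKO chow (adjusted p = 0.0081, but 0.0895 with pairs summed) and −3.22 ± 0.48 from Ctrl HFD (0.0053). Lpl was likewise lowest in LIRKO HFD, at 43.8 to 54.3 CPM, with 95.4 to 136 CPM in LIRKO chow, 113 to 215 CPM in Ctrl HFD and 282 to 492 CPM in Ctrl chow. Only the LIRKO chow and Ctrl HFD ranges of Lpl overlapped; LIRKO HFD differed from LIRKO chow by −1.24 ± 0.24 (adjusted p = 0.0151, but 0.153 with pairs summed) and from Ctrl HFD by −1.91 ± 0.24 (0.00382). Ptger3 was at 9.40 to 13.6 CPM in LIRKO HFD, 0.823 to 2.16 CPM in LIRKO chow, 0.211 to 1.49 CPM in Ctrl HFD and 0.216 to 1.08 CPM in Ctrl chow; it differed from LIRKO chow by 2.95 ± 0.54 (adjusted p = 0.012, but 0.188 with pairs summed) and from Ctrl HFD by 3.53 ± 0.51 (0.00415). For Vstm2a too, every LIRKO HFD library was above every other library, at 11.8 to 15.0 CPM.

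Other genes were as high or higher in LIRKO chow. C1qtnf1 was at 19.7 to 22.1 CPM in LIRKO HFD, 27.8 to 31.6 CPM in LIRKO chow, 1.81 to 4.75 CPM in Ctrl HFD and 0.279 to 3.79 CPM in Ctrl chow. It differed from Ctrl HFD by 2.79 ± 0.47 (adjusted p = 0.010) and from LIRKO chow by −0.55 ± 0.49 (0.58). Gc was at 224 to 248 CPM in LIRKO HFD, 252 to 264 CPM in LIRKO chow, 118 to 165 CPM in Ctrl HFD and 48.8 to 77.9 CPM in Ctrl chow. Aldh1a3 was at 44.4 to 54.8 CPM in LIRKO HFD, 79.5 to 96.7 CPM in LIRKO chow, 8.85 to 24.3 CPM in Ctrl HFD and 1.14 to 21.1 CPM in Ctrl chow. Neither difference of LIRKO HFD from the 2 groups that share its genotype or its diet passed (adjusted p = 0.595 and 0.482). Etv5, not past the threshold against Ctrl chow, was lower in LIRKO HFD than in LIRKO chow by 2.34 ± 0.20 on the log2 scale (adjusted p = 1.5e-05, and 0.00086 with pairs summed). The endothelial marker level was 3.46 to 3.79 (mean log2 CPM) in LIRKO HFD, 2.65 to 3.83 in Ctrl HFD, −0.54 and −0.34 in one LIRKO chow pair and 2.67 and 2.89 in the other, and 0.57 to 2.81 in Ctrl chow; its part in these differences was not tested.

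**Figure D5:**
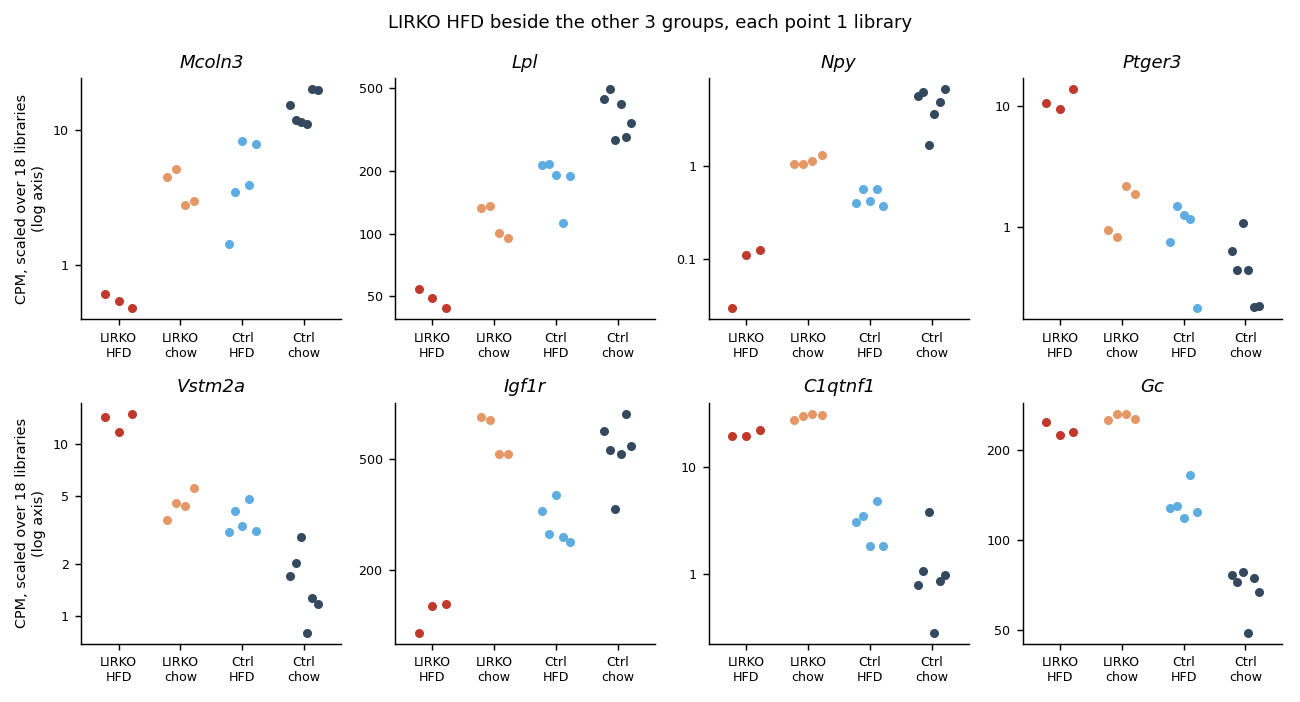
CPM on a log axis, scaled over all 18 libraries, of 8 genes in LIRKO HFD, LIRKO chow, Ctrl HFD and Ctrl chow, 1 point per library. LIRKO HFD lies apart from all other libraries for Mcoln3, Lpl, Npy, Ptger3, Vstm2a and Igf1r, while LIRKO chow lies above LIRKO HFD for C1qtnf1 (19.7 to 22.1 in LIRKO HFD, 27.8 to 31.6 in LIRKO chow) and for Gc (224 to 248 in LIRKO HFD, 252 to 264 in LIRKO chow).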

How the data were processed

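RNA-seq counts per gene were deposited by the authors as whole, unnormalised counts in 1 table of 18 libraries. The reads were aligned with STAR and counted with featureCounts on GRCm38, per the submitters' processing notes; the sources used here give no versions, annotation release or strand setting, so overlapping and antisense genes are uncertain. Of 53090 gene identifiers, 52489 matched a GENCODE M21 symbol. Genes past edgeR's filterByExpr were tested in the 9 libraries with TMM scaling and the quasi-likelihood test (edgeR 4.0.16, limma 3.58.1, R 4.3.3), with Benjamini-Hochberg adjustment over all genes tested and a threshold of 0.05. SE is the log2 fold change divided by the square root of F. CPM is scaled by the TMM factors. All adjusted p-values are from edgeR unless DESeq2 (1.42.0) is named. The 18-library fit has 1 coefficient per group. The script was tested on simulated data. Single library values were compared with a two-sided exact permutation test.

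The gene lists, the comparison and the genes named were chosen with earlier results of these data known. The naming rule takes the 15 largest rises and falls, the 10 smallest p-values, up to 4 called members of each process list, the 3 most abundant members of each marker list, and a fixed list. It gives 155 genes, and the text leaves some out for length. A result for 1 item is not reported here. That set was shortened for a time after alternatives had been seen, and was then put back in full. Malat1 is outside the rule and was chosen after its values were seen. Alternatives were RLE and upper-quartile scaling, no filter, DESeq2, all 18 libraries, and each library left out. Where a symbol had several identifiers, lists keep the one with more counts.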

Additional observations from a re-analysis of the deposited data

Results flagged for a closer look

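Among the 155 genes of the naming rule, 26 had 1 Ctrl chow library flagged by Dixon's test. Its gap to the nearest other was too large a part of the range over the 6 libraries. Chance alone flags about 1 group in 20 where values are normally distributed and genes are independent. The test was run on CPM and neither was shown, so 26 of 155 cannot be set against that rate. Of the 26 flags, 17 were in Ctrl chow replicate 3, the library with the highest endothelial marker level in its group. In Ctrl chow replicate 3 the values were 14.2 CPM for Rapgef5, 3.85 CPM for C1qtnf1, 1.62 CPM for Mgll, 3.9 CPM for Iqsec3, 6.31 CPM for Gfra1, 12.3 CPM for Sorcs2, 7.12 CPM for Rgs5, 9.3 CPM for Lama5, 3.38 CPM for Lin7a, 13.7 CPM for Epas1, 1.13 CPM for Spry1, 7.88 CPM for Inpp5d, 21.5 CPM for Aldh1a3, 32.8 CPM for Flt1, 71.8 CPM for Kdr, 18.3 CPM for Mgp and 203 CPM for Ctrb1. In Ctrl chow replicate 1 the values were 2.91 CPM for Ltbp2, 20.8 CPM for Fosl2, 5.4 CPM for Gpm6a and 324 CPM for Epcam. In Ctrl chow replicate 2 the values were 0.394 CPM for Htra1 and 2.03 CPM for Stc2. In Ctrl chow replicate 4 the value was 0.516 CPM for Alas2. In Ctrl chow replicate 6 the values were 39.3 CPM for Mlph and 175.0 CPM for Mbp.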

How the results depend on the processing

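No paired analysis was possible because the labels carry no replicate numbers; the numbers used here only follow the order of the samples. With 1 library left out the number of genes past the threshold ranged from 424 to 2944 (279 to 1714 higher and 145 to 1230 lower), with the fewest without LIRKO HFD replicate 2 and the most without Ctrl chow replicate 4. DESeq2 gave 2760 (1627 higher, 1133 lower), upper-quartile scaling 1331 higher and 418 lower, the endothelial covariate 1 (0 higher, 1 lower), and Ctrl chow limited to replicates 1 to 4 641 (409 higher, 232 lower). The covariate and the limit to 4 Ctrl chow libraries were chosen after seeing the data, and the cause of these moves was not tested. Of the 113 genes of the naming rule past the threshold, 66 passed under all 14 settings of scaling, filter, tool and library choice, and 1, Mcoln3, also under those 2 chosen after seeing the data.

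Among genes of the naming rule, the sign changed for genes that did not pass, apart from Flt1 with the covariate. Flt1 and Kdr are among the markers averaged into the covariate, so their change with it is partly built in. Over all genes, 60 of the 1722 past the threshold changed sign with the covariate and 0 did in the other 15 settings. The log2 fold change was 0.013 for Nkx6-1, 0.031 for Bhlha15 and 0.040 for Iapp with upper-quartile scaling. With 1 library left out it ranged over −0.062 to 0.22 for Pcsk1n, −0.34 to 0.019 for Bhlha15, −0.47 to 0.096 for Iapp, −1.07 to 1.05 for Ctrb1, −0.51 to 0.037 for Pyy, −1.53 to 0.29 for Cela1 and −0.16 to 0.014 for Nkx6-1. With the endothelial covariate it was −0.38 for Flt1, 0.18 for Sst, −1.24 for Kdr, 0.60 for Rbp4, 0.011 for Gpm6a, 0.022 for Ins1, −1.81 for Mgp, 0.11 for Epcam, 0.030 for Mki67, 0.12 for Nkx6-1, 0.76 for Ppy, 0.81 for Pyy and −0.055 for Insr, and with Ctrl chow limited to replicates 1 to 4 it was −0.0022 for Krt18. Against Ctrl HFD limited to replicates 3 to 5 it was 0.60 for Tcf7l2, −0.10 for Cd74, −0.044 for Mbp, −0.13 for Ctss, −0.27 for Gpm6a, −0.36 for Gcg, 0.22 for Ins1, 0.34 for Mgp, 0.21 for Ins2, 0.30 for Nkx6-1 and −0.16 for Insr. In simulated counts for these 18228 genes, 67 were changed 1.5-fold, 67 by 2-fold and 66 by 4-fold. The test recovered 1.49%, 22.4% and 74.2% of them, and 4.41% of its calls were false. Far fewer genes were changed there than passed in the data, so these shares do not give the recovery in the real comparison. In the data 845 of the 1039 rises and 264 of the 683 falls were at least 2-fold, and the rest were smaller.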

Other observations

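Of 1990 noncoding RNA genes tested, 78 (3.92%) rose and 32 (1.61%) fell in LIRKO HFD against Ctrl chow, below the shares over all genes tested, 5.7% and 3.75%. Of 14201 protein-coding genes tested, 916 (6.45%) rose and 640 (4.51%) fell. The difference between these shares was not tested.

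Ctrl chow replicate 6 had the highest level of its group for 50.8% of the genes that fell in LIRKO HFD and for 18.1% of the genes that did not pass. Without that library 351 genes fell, against 683 with it. A drop was not particular to replicate 6: without Ctrl chow replicate 1, 2, 3, 4 or 5, the falls numbered 451, 369, 559, 1230 and 441.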
